A study of Mus musculus with 8 samples.

Results

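Mouse embryonic stem cells labelled as knockouts of both Ago1 and Ago2 (Ago1_2 KO) were set directly against cells labelled as knockouts of Drosha (Drosha KO). The samples were chosen by genotype label and amount to 4 of the 8 libraries of the series, 2 per genotype. All 8 libraries came from the E14 line of the 129/Ola strain, kept for at least 2 weeks in 2i medium, in which N2B27 is supplemented with LIF, the GSK3 inhibitor CHIR99021 and the MEK inhibitor PD0325901. The remaining libraries, 2 of wild type (WT) and 2 of Dgcr8 KO cells, helped to estimate the spread of each gene and to filter low counts, and no WT level entered the difference between the genotypes. Whether both libraries of a genotype derive from different cultures, or from 1 clone, is left unsaid by the labels, so p-values measure only the spread between these samples, which may be technical. A change is Ago1_2 KO minus Drosha KO throughout, and "higher" means higher in Ago1_2 KO.

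DROSHA and its partner DGCR8 form the Microprocessor, the nuclear enzyme that cuts miRNA hairpins out of long primary transcripts. XPO5 carries the hairpins to the cytoplasm, DICER1 trims them, and Argonaute proteins hold the mature miRNA and silence its target mRNAs. Loss of Drosha and loss of Argonautes therefore both remove miRNA function, but only the former removes the cutting step. Mature miRNAs have no poly(A) tail and are not read by a library of polyadenylated RNA, so counts on a miRNA gene come from longer transcripts that span it.

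The miRNA genes that differed between the genotypes make mature miRNAs that include the following. They are shown 5′ to 3′ with the seed (bases 2 to 8) in capitals because the seed is what pairs with a target. Of 216 miRNA genes tested, 157 had a mature sequence in RefSeq (GRCm38.p6), among them 25 of the 25 called lower. Many fall into a few seed families that embryonic stem cells are known to express. Mir292 of the miR-290 cluster was called too, but the sequences used hold only its 5′ mature miRNA, miR-292a-5p, which is not shown. From the miR-290 cluster, the source of the most abundant miRNAs of these cells, 4 of those shown share AAGUGC at the start of the seed, and miR-293-3p, from the same cluster, does not:
miR-290a-3p: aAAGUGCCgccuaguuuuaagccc
miR-291a-3p: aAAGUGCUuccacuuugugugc
miR-291b-3p: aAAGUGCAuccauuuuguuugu
miR-294-3p: aAAGUGCUucccuuuugugugu
miR-293-3p: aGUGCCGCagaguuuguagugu
Those of the miR-17-92 cluster on chromosome 14 and its copy on the X chromosome, miR-106a-363, hold the same letters 1 base later, and pair with near-identical sites:
miR-17-5p: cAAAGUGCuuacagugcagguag
miR-20a-5p: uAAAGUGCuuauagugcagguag
miR-20b-5p: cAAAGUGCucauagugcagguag
miR-106a-5p: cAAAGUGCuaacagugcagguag
The same clusters also hold the miR-18, miR-19 and miR-92 families, each called on both chromosomes:
miR-18a-5p: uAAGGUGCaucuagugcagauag
miR-18b-5p: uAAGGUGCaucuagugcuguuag
miR-19b-3p: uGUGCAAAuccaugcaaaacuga
miR-92a-3p: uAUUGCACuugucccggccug
miR-363-3p: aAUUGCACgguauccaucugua
Other called miRNA genes make miRNAs that do not share these seeds:
let-7a-5p: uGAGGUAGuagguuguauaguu
let-7f-5p: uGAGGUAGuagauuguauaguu
miR-24-3p: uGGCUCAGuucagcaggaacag
miR-27b-3p: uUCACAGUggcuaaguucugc
miR-29a-3p: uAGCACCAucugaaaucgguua
miR-23b-5p: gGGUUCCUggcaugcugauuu
miR-101a-3p: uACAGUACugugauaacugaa
miR-298-5p: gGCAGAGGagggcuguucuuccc
miR-181c-5p: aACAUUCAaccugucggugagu

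The hairpins below are what the Microprocessor cuts, with the mature arms in capitals. They are shown for a gene of each of 4 loci, for the hairpin inside the Dgcr8 mRNA, and for Mir702, a mirtron, whose hairpin is known to be released by splicing and not by the Microprocessor.
Mir290a: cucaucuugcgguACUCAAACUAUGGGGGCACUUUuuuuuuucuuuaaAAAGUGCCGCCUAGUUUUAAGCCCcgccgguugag
Mir17: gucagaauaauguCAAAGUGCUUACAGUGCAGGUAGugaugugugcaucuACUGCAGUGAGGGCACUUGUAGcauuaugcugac
Mir24-1: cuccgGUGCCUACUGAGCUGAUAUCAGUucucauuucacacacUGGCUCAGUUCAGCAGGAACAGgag
Mir29a: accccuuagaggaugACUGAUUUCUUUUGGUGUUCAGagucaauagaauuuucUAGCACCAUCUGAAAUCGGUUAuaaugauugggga
Mir1306: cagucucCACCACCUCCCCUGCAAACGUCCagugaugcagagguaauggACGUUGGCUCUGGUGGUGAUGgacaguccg
Mir702: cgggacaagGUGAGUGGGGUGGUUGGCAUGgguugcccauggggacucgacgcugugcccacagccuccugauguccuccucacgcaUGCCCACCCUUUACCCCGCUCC
In GRCm38 these lie on chromosome 7 (Mir290a, 3218626 to 3218708, + strand), chromosome 14 (Mir17, 115043671 to 115043754, +), chromosome 13 (Mir24-1, 63301208 to 63301275, +), chromosome 6 (Mir29a, 31062660 to 31062747, -), chromosome 16 (Mir1306, 18284239 to 18284317, -) and chromosome 5 (Mir702, 136991433 to 136991541, +).

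Drosha KO libraries 1 and 2 held 17589425 and 26333907 total counts, and Ago1_2 KO libraries 1 and 2 held 24172661 and 13229771. The libraries of a pair were unequally close: 988 genes differed by over 2-fold between the Drosha KO libraries and 134 between the Ago1_2 KO libraries, on the scale of log2(CPM + 1), where CPM is the count of a gene scaled to a common library total (10 to the sixth power). Stem cell markers were present in all 4: the 10 listed genes summed to 7772 and 8854 CPM in Drosha KO and to 7852 and 7796 CPM in Ago1_2 KO, and none was called. Listed fibroblast genes, which would mark feeder cells, summed to 13 and 18.5 CPM against 16.6 and 21.3 CPM, and 0 of the 5 that passed the filter were called.

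Among the targeted genes, Drosha mRNA (ENSMUSG00000022191.15, chromosome 15, 12824815 to 12935291) stood at 51.2 and 82.4 CPM in Drosha KO and at 339 and 361 CPM in Ago1_2 KO. The genotypes did not overlap, and the change was 2.39 ± 0.24 on the log2 scale (standard error, 2 libraries per genotype, edgeR quasi-likelihood test, Benjamini-Hochberg adjusted p 0.00473). Ago2 (ENSMUSG00000036698.10, chromosome 15, 73095844 to 73184935), the Argonaute that can itself cut RNA, stood at 1070 and 809 CPM in Drosha KO and at 216 and 195 CPM in Ago1_2 KO. It was lower by -2.19 ± 0.34 (edgeR adjusted p 0.0236), a call that was lost when any 1 of the 4 libraries compared was left out, with changes of -2.37 to -1.98. In WT, Ago2 was at 464 and 227 CPM, below both Drosha KO libraries and above both Ago1_2 KO libraries. The gap between the genotypes therefore also holds a Drosha KO level above WT. Ago1 was at 295 and 170 CPM against 160 and 87.8 CPM and was not called (-0.91 ± 0.36, edgeR adjusted p 0.43), and the lowest Drosha KO library was close to the highest Ago1_2 KO library. Gene counts cannot see an edit that spares the transcript, so Ago1 mRNA does not check the label.

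Of 16388 genes tested, 120 were called between the genotypes at an adjusted p under 0.05, which is 0.732% of them. In Ago1_2 KO 67 were higher (0.409%) and 53 lower (0.323%). The lower group held 25 miRNA genes and 16 other genes that contain one or lie within 10 kb of one, and the higher group 12 genes of the two-cell embryo and 17 genes of 2 chromosome segments. At an unadjusted p under 0.05 the count was larger: 1602 genes (9.78%) passed, 6.69% of all in the higher and 3.08% in the lower direction, and 1591 differed by over 2-fold. As further background, 46.9% of all tested genes had a positive change, and both Ago1_2 KO libraries were above both Drosha KO libraries in 20.5% (3361 genes) and below them in 3135 genes. The count fell to 15 when the spread was estimated from the 4 libraries alone and rose to 178 with the 6 KO libraries. It was 18 without Ago1_2 KO library 1, 6 without Ago1_2 KO library 2, 65 without Drosha KO library 2, 132 without Drosha KO library 1, and 38 without either Dgcr8 KO library. Of the 65 and the 132, 38 and 57 were among the 120. The 120 genes kept their direction in each of these fits, except 1 that was not tested with 4 libraries.

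**Figure D1:**
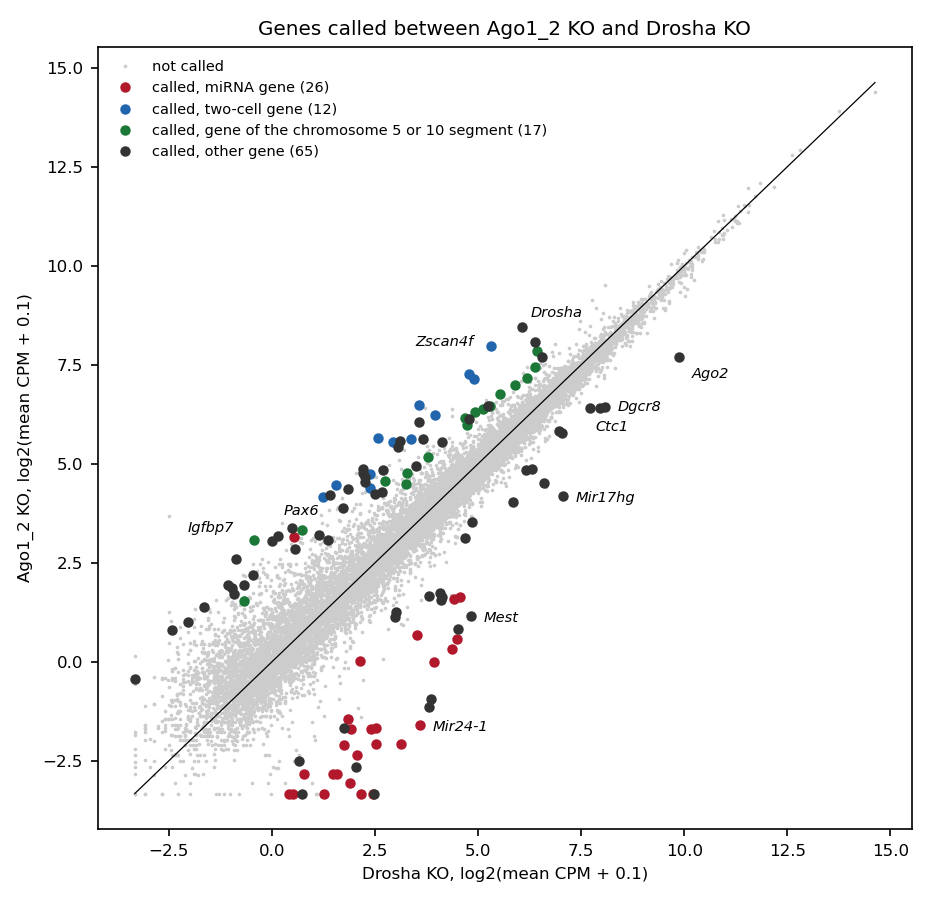
Mean level of each tested gene in Drosha KO (x axis) and Ago1_2 KO (y axis), as log2 of the mean CPM of 2 libraries plus 0.1; grey points were not called, coloured points were, and the line marks equal levels. The 25 lower miRNA genes sit far below the line, several at the level that stands for 0 counts, while the 12 two-cell genes and the 17 genes of the chromosome segments lie above it.

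Of 216 tested miRNA genes 25 were called lower in Ago1_2 KO, many of them in 4 clusters, against 0.323% of all tested genes. The miR-290 cluster (chromosome 7, 3218626 to 3220841) summed to 152 and 116 CPM in Drosha KO and to 13.6 and 14.3 CPM in Ago1_2 KO. The miR-23b cluster, which also holds miR-27b and miR-24, summed to 29.3 and 23.2 CPM against 0.716 and 0.299 CPM. The genotypes did not overlap in either cluster, and the Ago1_2 KO sums of the miR-23b cluster rest on 18 and 4 counts.

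The miR-106a-363 cluster on the X chromosome summed to 26.6 and 21.6 CPM in Drosha KO against 1.23 and 2.32 CPM in Ago1_2 KO, and the related miR-17-92 cluster on chromosome 14 to 22.4 and 12 CPM against 0.875 and 0.374 CPM. In raw reads the miR-17-92 sum was 395 and 309 counts against 22 and 5 counts. Called lower were 6 of 7 tested genes of the miR-290 cluster, 3 of 3 of miR-23b, 5 of 6 of miR-106a-363 and 5 of 6 of miR-17-92. The share called lower among all tested genes was 0.323%. The 3 tested members not called were Mir295 (25 and 15.1 CPM against 3.5 and 2.77 CPM, edgeR adjusted p 0.0647), Mir92-2 (3.40 and 2.56 CPM against 0.239 and 0.599 CPM, 0.0723) and Mir19a (0.965 and 0.698 CPM against 0.0398 and 0 CPM, 0.0611). All 3 had both Ago1_2 KO libraries below both Drosha KO libraries, which was the case for 3135 of the 16388 tested genes. As background for these levels, WT libraries summed to 11.5 and 19.2 CPM in the miR-290 cluster and to 0.451 and 0.242 CPM in miR-17-92, and Dgcr8 KO libraries to 77.9 and 81.4 CPM and to 15.5 and 12.7 CPM.

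Within the miR-290 cluster the 3 tested hairpins at the 5′ end had larger changes than the 3 called hairpins that follow. Mir290a was at 18.0 and 12.2 CPM against 0.915 and 0.898 CPM (-4.05 ± 0.38), Mir291a at 24.9 and 19.6 CPM against 1.27 and 1.5 CPM (-4.01 ± 0.34), and Mir292 at 20.8 and 20 CPM against 1.03 and 1.27 CPM (-4.16 ± 0.36), each with an edgeR adjusted p of 0.00302 or less. Downstream of them, Mir291b changed by -2.88 ± 0.32, Mir293 by -2.98 ± 0.32 and Mir294 by -2.92 ± 0.44, with levels of 1.43 to 3.22 CPM in Ago1_2 KO. The difference between the upstream and the downstream hairpins was not tested.

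The single gene with the smallest p was Mir24-1, at 13.8 and 10 CPM in Drosha KO and 0.239 and 0.224 CPM in Ago1_2 KO (243 and 258 counts against 6 and 3). Its change was -5.63 ± 0.47 (edgeR adjusted p 0.00279), and like Mir291a and Mir292 it was called with each of the 8 libraries left out in turn. Its neighbour Mir27b had 8.68 CPM in each Drosha KO library and 0.199 and 0.0748 CPM in Ago1_2 KO (-5.78 ± 0.53, edgeR adjusted p 0.00302). Several miRNA genes had no count at all in Ago1_2 KO, so their fold change is a bound, taken against a floor of 3 counts over the 2 libraries. Mir29a, with 137 and 79 counts in Drosha KO, was at least 63.8-fold lower, and Mir20b, with 86 and 99 counts, at least 54.7-fold lower. Mirlet7a-1, a source of let-7a, with 42 and 58 counts, was at least 29.5-fold lower. Mir29a and Mirlet7a-1 passed the filter on low counts through the Drosha KO libraries alone, so their direction was fixed by it. Mir106a held 1 count in Ago1_2 KO against 149 in Drosha KO, a 132-fold ratio with a 95% interval of 23.3 to 5252 that covers counting error only.

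Across the list, 2202 miRNA genes are annotated and 216 passed the filter, of which 25 were called lower and 1 higher. A gene passed at 0.553 CPM or more in 2 libraries, and 15 of the 216 passed through the Drosha KO libraries alone, which fixes their direction. Of the genes called, these were Mir29a, Mirlet7a-1, Mir17, Mir101a and Mir181c. Without those 15 and 2 that passed through Ago1_2 KO alone, 20 of 199 were called lower. In the unfiltered counts, 716 miRNA genes had a count in any of the 4 libraries, and 425 of them had the lower mean in Ago1_2 KO and 291 the higher. Both Ago1_2 KO libraries were below both Drosha KO libraries in 141 of them (19.7%) and above in 62 (8.66%). Over all 25743 genes with a count the numbers were 3899 below (15.1%) and 4913 above. The 1 gene called higher, Gm47288, lies inside the Drosha gene (chromosome 15, 12842096 to 12842235, same strand) and followed it, at 0.794 and 1.90 CPM against 8.91 and 8.68 CPM. The number of lower miRNA genes was 7 with the 4 libraries alone, 4 and 3 without Ago1_2 KO library 1 or 2, and 16 without either Dgcr8 KO library.

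**Figure D2:**
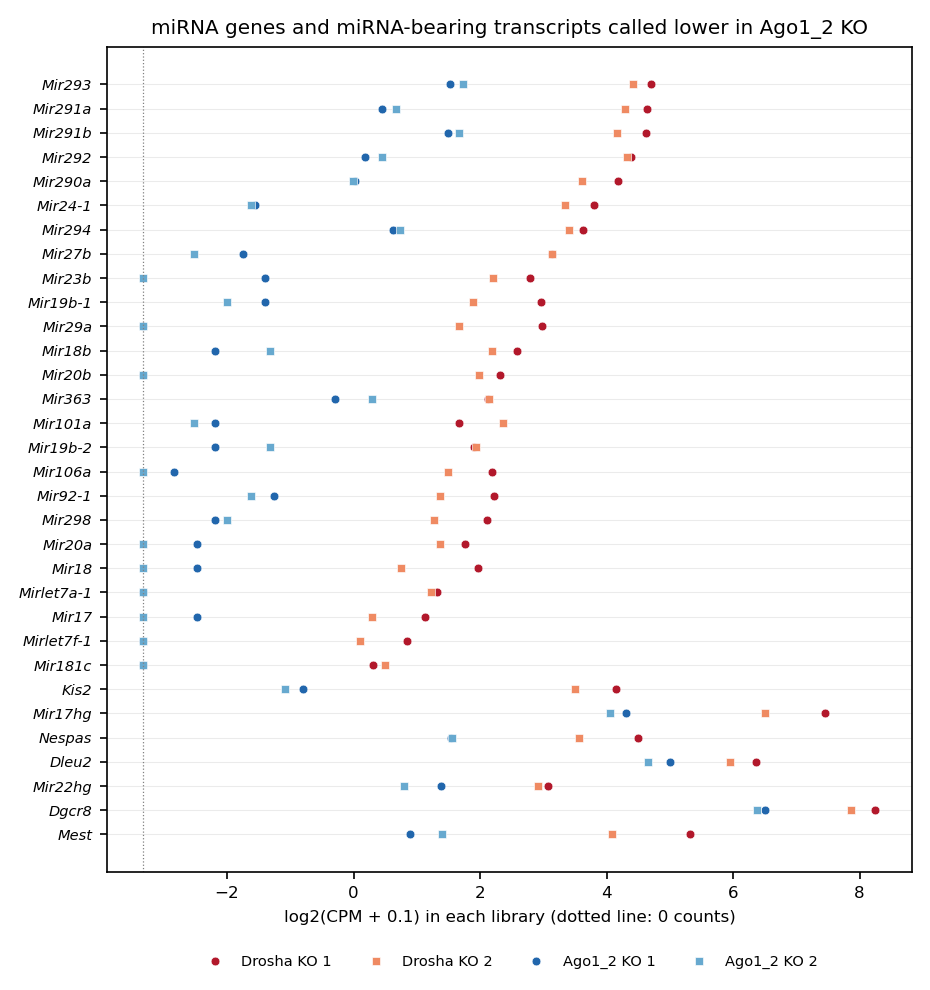
Level of the 25 miRNA genes called lower and of 7 transcripts that carry or lie beside miRNA genes, in each library, as log2(CPM + 0.1); red and orange points are Drosha KO, dark and light blue points Ago1_2 KO, and the dotted line stands for 0 counts. In each row both Drosha KO points lie to the right of both Ago1_2 KO points. Among all 16388 tested genes, 3135 were lower in Ago1_2 KO without overlap.

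The miRNA genes were also counted by where they lie. Of the 216, 141 lie on the same strand inside a protein-coding gene, 33 inside another annotated gene such as a long noncoding RNA, and 42 inside no annotated gene. Called lower were 4 of the 141, 8 of the 33 and 13 of the 42, against 0.323% of all tested genes. Among those called, Mir181c of the 141, Mirlet7a-1, Mir17 and Mir101a of the 33, and Mir29a of the 42 passed through Drosha KO alone. The median log2 change was -0.12 inside protein-coding genes, -3.43 inside other genes and -2.77 outside annotated genes, or -2.33 in the last with the genes without counts set to their bound. The median of all tested genes was -0.03. These medians describe the genes that passed the filter, the 15 that passed through Drosha KO alone included, and the difference between the classes was not tested. Genes of both latter classes, among them Mir668, Mir541, Mir485 and Mir127, lie in the imprinted Dlk1-Meg3 domain of chromosome 12. Mir485 is the gene at the median of -3.43. In that domain the long noncoding RNA Mirg was at 0.340 CPM in Drosha KO library 1 and 140 CPM in library 2. Values there may therefore rest on Drosha KO library 2. Those 4 inside protein-coding genes were Mir24-1, Mir27b and Mir23b, within 2010111I01Rik, and Mir181c. The sources used here do not give how reads on both a hairpin and its surrounding gene were assigned.

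**Figure D3:**
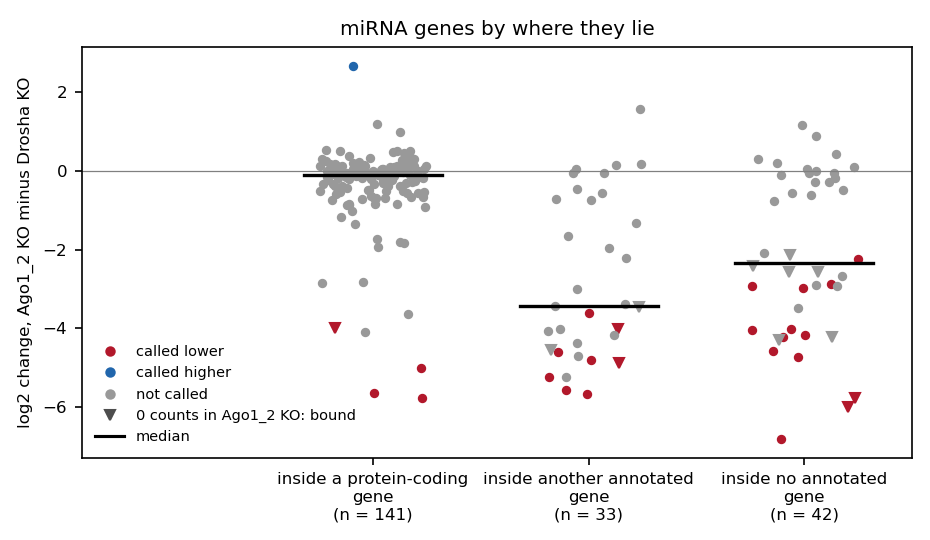
Log2 change of the 216 tested miRNA genes, Ago1_2 KO minus Drosha KO, by whether they lie inside a protein-coding gene, inside another annotated gene or inside none; triangles are genes with 0 counts in both Ago1_2 KO libraries, drawn at their bound, and the bars are medians with these bounds. The points inside protein-coding genes gather around 0, and those of the other classes spread down to below -6.

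Some transcripts that carry the hairpins were lower as well. Of 15 tested host transcripts on the list, 5 were called lower and 0 higher, and 5 of the others had a positive change. The shares over all tested genes were 0.323% lower and 0.409% higher. Mir17hg, the primary transcript of miR-17-92 (chromosome 14, 115042879 to 115046727), was at 176 and 90.9 CPM in Drosha KO and at 19.7 and 16.5 CPM in Ago1_2 KO (-2.88 ± 0.33, edgeR adjusted p 0.00733). Kis2, the transcript at the 5′ side of miR-106a-363, was at 17.6 and 11.2 CPM against 0.478 and 0.374 CPM (-5.03 ± 0.48, edgeR adjusted p 0.00302). On the log2 scale both were separated by more than the spread of either pair of libraries.

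Dleu2, which carries miR-15a and miR-16-1, differed less, at 82.0 and 61.6 CPM against 31.9 and 25.2 CPM (-1.33 ± 0.22, edgeR adjusted p 0.031). Mir22hg, the miR-22 transcript, was at 8.28 and 7.44 CPM against 2.51 and 1.65 CPM (-1.89 ± 0.33, 0.0391). Nespas, an imprinted antisense RNA of the Gnas locus that ends 13.7 kb before Mir298 on the same strand, was at 22.6 and 11.8 CPM against 2.83 and 2.84 CPM (-2.59 ± 0.38, 0.0227), and without knowledge of strand in the counting its reads cannot be told apart from those of the genes it overlaps. Hosts not called included Mcm7, the replication helicase gene that holds the miR-106b cluster in an intron, with a change of -0.32 ± 0.18 (edgeR adjusted p 0.673). The 5 lower hosts became 1 with the 4 libraries alone, 1 and 0 without Ago1_2 KO library 1 or 2, 3 without Drosha KO library 1, and 2 without either Dgcr8 KO library.

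Positions were then counted for the 53 lower genes without a list. Of these, 25 were miRNA genes and 28 were not. Of the 28, 12 (42.9%) contained a miRNA gene on their strand and 16 (57.1%) contained one or lay within 10 kb of one. Gm27019, Gm20732, Gm37238 and Lncpint passed the filter through Drosha KO alone, and without them 11 of 24 contained a miRNA gene and 13 contained one or lay within 10 kb. Among all 16099 tested genes that are not miRNA genes, 4.61% contained a miRNA gene and 6.53% contained one or lay within 10 kb, and among the 66 higher genes 3 (4.55%) did either. The 16 included unnamed noncoding loci, such as Gm27019, which lies beside miR-29a and miR-29b-1 and had 129 and 94 counts in Drosha KO and 0 in both Ago1_2 KO libraries. Lncpint, a long noncoding RNA that ends 19.5 kb before Mir29b-1 on the same strand, fell outside the 10 kb limit and had 92 and 71 counts against 3 and 0 counts.

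Of 696 protein-coding genes that contain a miRNA gene, 5 were called lower (0.718%) and 3 higher (0.431%). Of the 12935 that contain none, 9 were called lower (0.0696%) and 60 higher (0.464%). The median change was -0.02 in the former and -0.01 in the latter. The 5 were 2010111I01Rik, which holds the miR-23b cluster, Dgcr8, Chpf2, 2610318N02Rik and Mest. 2010111I01Rik was at 107 and 88.1 CPM in Drosha KO and 24.8 and 20.6 CPM in Ago1_2 KO (-2.10 ± 0.23, edgeR adjusted p 0.00659), a far smaller difference than that of Mir24-1 within it. Chpf2, a chondroitin-synthesis gene with Mir671, was at 25.5 and 31.6 CPM against 10.5 and 12.3 CPM, and 2610318N02Rik, with Mir130b and Mir301b, at 71.4 and 86.9 CPM against 24.9 and 33.0 CPM.

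Mest, an imprinted gene expressed from the paternal copy that carries miR-335 in an intron, had the largest fitted change among the lower protein-coding genes, at 39.9 and 16.9 CPM against 1.75 and 2.54 CPM (-3.75 ± 0.46, edgeR adjusted p 0.0107). Its level in WT was 11 and 19.2 CPM, above both Ago1_2 KO libraries. Of the 36 tested imprinted genes 2 were called, Mest and Nespas, both lower, against 0.323% of all tested genes called lower.

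Dgcr8 (chromosome 16, 18253948 to 18289246) encodes the partner of DROSHA, and its mRNA is the best-known mRNA that the Microprocessor cuts. It stood at 304 and 234 CPM in Drosha KO and 91.2 and 82.9 CPM in Ago1_2 KO, next to 78.1 and 70.5 CPM in WT. The difference was -1.63 ± 0.20 (edgeR adjusted p 0.0103), and it was called in 6 of the 8 fits with a library left out, the exceptions being those without an Ago1_2 KO library. The hairpin Mir1306, shown above, lies in the Dgcr8 mRNA and was at 9.65 and 9.54 CPM against 2.43 and 2.62 CPM without passing the threshold (-1.93 ± 0.49, edgeR adjusted p 0.151).

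Hairpins that need no Microprocessor were few. Of 5 listed after the data were seen, 2 passed the filter and 0 were called. The mirtron Mir702 was at 3.06 and 3.53 CPM in Drosha KO and 2.71 and 3.89 CPM in Ago1_2 KO, a change of -0.01 ± 0.37, and the libraries overlapped. Mir877 was at 0.624 and 0.853 CPM against 0.478 and 0.299 CPM (-0.88 ± 0.58, edgeR adjusted p 0.746), a depth at which a change of the size seen for Dgcr8 could not be told from none.

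Few other genes of the miRNA machinery were called. Of 26 listed genes, 1 was called higher (Drosha) and 2 lower (Dgcr8 and Ago2), and the median change was -0.09. Over all tested genes 0.409% were called higher and 0.323% lower. Dicer1, which trims the hairpins, was at 85.5 and 118 CPM against 148 and 141 CPM (0.51, edgeR adjusted p 0.608), and Xpo5, the exporter, at 114 and 110 CPM against 98.2 and 92.6 CPM (-0.23, 0.852). Of the other Argonautes, Ago3 was at 28.6 and 19.3 CPM against 31.9 and 24.8 CPM (0.25, 0.953) and Ago4 at 1.70 and 4.11 CPM against 1.55 and 1.87 CPM (-0.79, 0.715). The genotypes' libraries overlapped at both Ago3 and Ago4.

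Targets of miRNAs gave 1 call over both lists, too few to set against the 0.732% of all genes. Of 20 listed targets of the miR-290 family, which act mainly in the cell cycle, apoptosis and Nodal signalling, 0 were called, and their median change was 0.17. The one with the smallest p, Lats2, a Hippo pathway kinase, was at 35.1 and 15.9 CPM against 13.2 and 13.5 CPM (-0.93 ± 0.38, edgeR adjusted p 0.444), and Cdkn1a, the p21 inhibitor of the cell cycle, at 168 and 155 CPM against 206 and 214 CPM (0.38 ± 0.18, 0.535). Of 23 let-7 targets 1 was called, Ccnd1, which encodes cyclin D1. It was at 109 and 78.1 CPM in Drosha KO and at 187 and 227 CPM in Ago1_2 KO (1.15 ± 0.21, edgeR adjusted p 0.0465), a call lost in 5 of 8 fits with a library left out.

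Seed sites in 3′ ends gave the same near-zero values. Of 13421 protein-coding genes whose longest annotated 3′ untranslated region has 50 bases or more, 2440 hold AGCACTT, the site for the seed of miR-291a-3p, and their median change was 0.02, against -0.02 for the rest. Of these 2440, 14 were called higher (0.574%) and 0 lower, near the 0.44% and 0.0969% of all 13421. For GCACTTT, the site of miR-17-5p, which shares 6 letters with the former, 1973 genes had a median of 0.01 against -0.02, with 9 called higher (0.456%) and 1 lower. The 1606 genes with the let-7a site CTACCTC had a median of 0.01 against -0.01. No site family in the set of 6 had a median further from 0 than 0.02.

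A group of two-cell state genes was called higher in Ago1_2 KO. Genes of that state, among them the Zscan4 and Usp17l families, are normally on in the two-cell embryo, where the genome is first transcribed, and in a small, changing fraction of embryonic stem cells. Of 40 listed genes 38 were in the table and 31 passed the filter, and 12 of these were higher by the adjusted test and 0 lower, while 29 had an unadjusted p under 0.05. Among all tested genes, 0.409% were called higher and 6.69% were higher at that unadjusted threshold. Without the 4 genes that passed the filter through Ago1_2 KO alone, 12 of 27 were called. In the unfiltered counts, 36 of the 38 had any count in the 4 libraries, 36 of those 36 had the higher mean in Ago1_2 KO, and in 35 both Ago1_2 KO libraries were above both Drosha KO libraries. For all 25743 genes with counts the direction of the mean was near even, with 13148 higher and 12595 lower in Ago1_2 KO. Both Ago1_2 KO libraries were above both Drosha KO libraries in 4913 of those 25743.

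Summed over the list, two-cell genes came to 267 and 171 CPM in Drosha KO and to 799 and 1627 CPM in Ago1_2 KO. The same sum was 14.1 and 11.6 CPM in WT and 55.5 and 61.4 CPM in Dgcr8 KO, so the Drosha KO libraries, though the lower of the pair compared here, were far above WT. The Ago1_2 KO libraries themselves were 2-fold apart, library 2 being the higher in each of the genes named next.

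Zscan4f (chromosome 7, 11397915 to 11402318), the most abundant member, was at 44.1 and 34.9 CPM in Drosha KO and at 149 and 354 CPM in Ago1_2 KO (2.67 ± 0.36, edgeR adjusted p 0.0153). Zscan4 proteins act at telomeres and heterochromatin in these cells. Zscan4c was at 34.2 and 20.9 CPM against 94.1 and 214 CPM, Zscan4d at 16.1 and 7.60 CPM against 58.0 and 122 CPM, and Zscan4b at 6.30 and 5.35 CPM against 29.5 and 71.8 CPM, and these 3 were called with changes of 2.48 to 3.12. The family sum of the 5 Zscan4 genes was 117 and 77.9 CPM against 386 and 876 CPM. The copies are close to identical: 42.4% to 89.0% of the 50-base windows of each Zscan4 transcript also occur in a transcript of another tested gene, so reads may be split between copies or lost, and the sum is safer than any copy.

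The Usp17l genes, which encode deubiquitinating enzymes, behaved alike. Usp17le was at 2.55 and 1.98 CPM against 14.4 and 21.0 CPM (2.96 ± 0.40, edgeR adjusted p 0.0153), and Usp17lb and Usp17lc were also called. Their 5 genes summed to 15.1 and 12.6 CPM against 57.4 and 107 CPM, with 17.4% to 50.4% of windows shared. Duxf3, the Dux gene whose protein switches on the two-cell programme, was at 0.794 and 0.620 CPM against 2.67 and 5.76 CPM and was not called (2.56, edgeR adjusted p 0.0788). The remaining called members were Gm21761, Gm4340, Gm2016, Gm8300 and Gm5039. The 12 calls became 0 without Ago1_2 KO library 2, 0 without Drosha KO library 2, 6 without either Dgcr8 KO library and 0 with the 4 libraries alone, and were 19 with DESeq2.

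**Figure D4:**
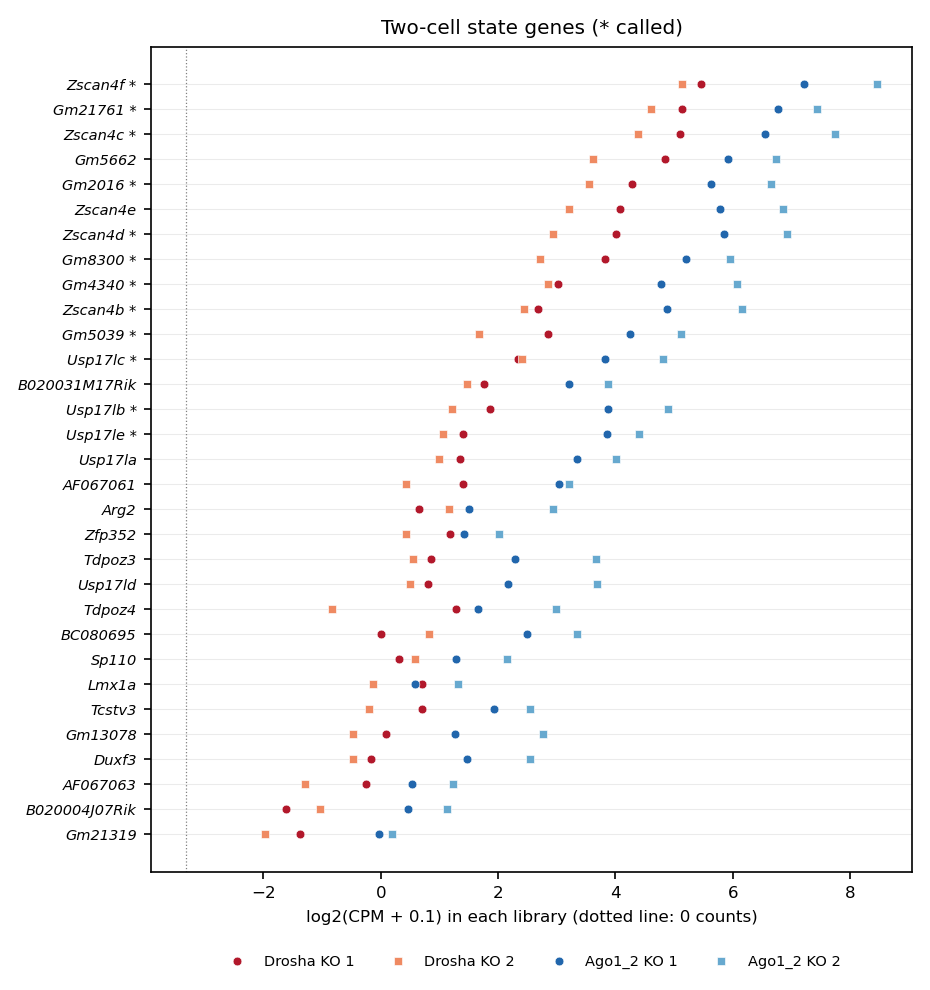
Level of the 31 tested two-cell state genes in each library, as log2(CPM + 0.1), with stars on called genes; red and orange points are Drosha KO, dark and light blue points Ago1_2 KO. The Ago1_2 KO points lie to the right in 30 of the 31 rows without overlap (Lmx1a is the exception), with library 2 to the right of library 1. Among all tested genes, 20.5% were higher in Ago1_2 KO without overlap.

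No regulator of that state was called. Of 21 listed genes that repress or promote it, 0 were called, against a background of 0.732%, and their median change was -0.03. Dppa2, which helps to activate Dux, was at 154 and 87.2 CPM against 132 and 210 CPM (0.50 ± 0.30, edgeR adjusted p 0.691), and Trim28, a corepressor of retroelements, at 1406 and 1425 CPM against 1268 and 1338 CPM. Of 25 naive pluripotency genes 0 were called and the median change was -0.02. Pou5f1 was at 1159 and 1121 CPM against 949 and 1108 CPM, and Nanog at 764 and 878 CPM against 992 and 1135 CPM (0.37 ± 0.20, edgeR adjusted p 0.642).

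A further set of higher genes was low in Drosha KO and several times higher in Ago1_2 KO. Pax6, a transcription factor of eye and neural progenitors, was at 1.76 and 0.853 CPM in Drosha KO and at 11.3 and 9.43 CPM in Ago1_2 KO (3.01 ± 0.43, edgeR adjusted p 0.0202), above both WT libraries, which were at 0.226 and 0.193 CPM. Crabp2, which carries retinoic acid to its nuclear receptors, was at 1.13 and 0.892 CPM against 8.63 and 9.28 CPM (3.15 ± 0.41, 0.0133). Aldh1a2, which makes retinoic acid, was at 1.87 and 2.36 CPM against 9.47 and 8.61 CPM (2.08 ± 0.38, 0.0446). Of 14 tested retinoic acid pathway genes, a list made after the data were seen, these 2 were called, and of 13 tested neural genes Pax6 alone. The share called higher among all tested genes was 0.409%.

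Serping1, the C1 inhibitor of complement, was at 4.2 and 4.81 CPM against 26.6 and 28.1 CPM (2.60 ± 0.32, edgeR adjusted p 0.0107), and it was among the 15 genes called with the 4 libraries alone. Tarm1, a receptor of myeloid cells, was at 0.113 and 0.775 CPM against 4.85 and 7.11 CPM (3.62 ± 0.58, 0.028), but WT was at 7.96 and 6.87 CPM, so both Drosha KO libraries were below WT and the Ago1_2 KO libraries overlapped it. With a library left out, Serping1 kept its call in 6 of 8 fits, Crabp2 in 5, Tarm1 in 4, Pax6 in 3 and Aldh1a2 in 2. Ago1_2 KO libraries 1 and 2 and Drosha KO library 2 were those whose absence ended the call of Crabp2, and for Pax6 the Dgcr8 KO libraries as well.

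Position along the chromosomes set apart 2 stretches in which most genes were higher in Ago1_2 KO. They were found by taking the median change in windows of 5 Mb with 10 or more tested genes: 11 of 436 windows had a median above 0.5 and 0 had one below -0.5, and 4 of the 11 adjoin on chromosome 10 and 3 lie on chromosome 5. The rest were single windows on chromosome 7 (70 to 75 Mb, median 1.13) and chromosome 10 (100 to 105 Mb, 0.83). Single windows also lay on chromosome 12 (115 to 120 Mb, 0.66) and chromosome 1 (80 to 85 Mb, 0.55). Since the windows were picked by these changes, the values that follow are a description with no test. On chromosome 10, from 55 to 75 Mb, 85 of 90 tested genes had a positive change, with a median of 0.98, and 9 were called higher and 0 lower. On chromosome 5, from 75 to 95 Mb, 58 of 73 were positive, with a median of 0.95, and 8 were called higher and 0 lower. The rest of each chromosome had a median of -0.04. Together the segments held 17 of the 67 higher genes and 0 of the 53 lower.

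The libraries that stood apart were not the same in both. Each library was set against the mean of the WT and Dgcr8 KO libraries on the scale of log2(CPM + 0.5), over genes with a mean of 1 CPM or more. In the chromosome 10 segment the median of Ago1_2 KO was 0.87 and 0.85 above that mean, and Drosha KO was at -0.05 and -0.09. In the chromosome 5 segment Drosha KO was at -0.75 and -0.99 and Ago1_2 KO at -0.08 and -0.22. The number of copies of these segments in the cells was not tested.

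Called genes of the chromosome 10 segment included Chst3, a chondroitin sulfotransferase, at 1.65 and 1.47 CPM against 9.99 and 10 CPM (2.68 ± 0.45, edgeR adjusted p 0.0345), and Mcu, the pore of the mitochondrial calcium uniporter, at 9.53 and 9.73 CPM against 24.9 and 29.3 CPM. Ddit4, an inhibitor of mTOR signalling, was at 9.19 and 9.65 CPM against 22.5 CPM in both (1.26 ± 0.21, 0.0347), and it was the only called member of 31 tested ATF4 response genes. In the chromosome 5 segment Igfbp7, a secreted binding protein for insulin-like growth factors, was at 0.624 and 0.659 CPM against 7.60 and 9.13 CPM (3.69 ± 0.43, 0.00733), a change well beyond the segment's median. Srp72, a subunit of the signal recognition particle, was at 86.0 and 81.4 CPM against 171 and 174 CPM, close to that median. Without the genes of both segments, 50 higher and 53 lower genes remained.

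**Figure D5:**
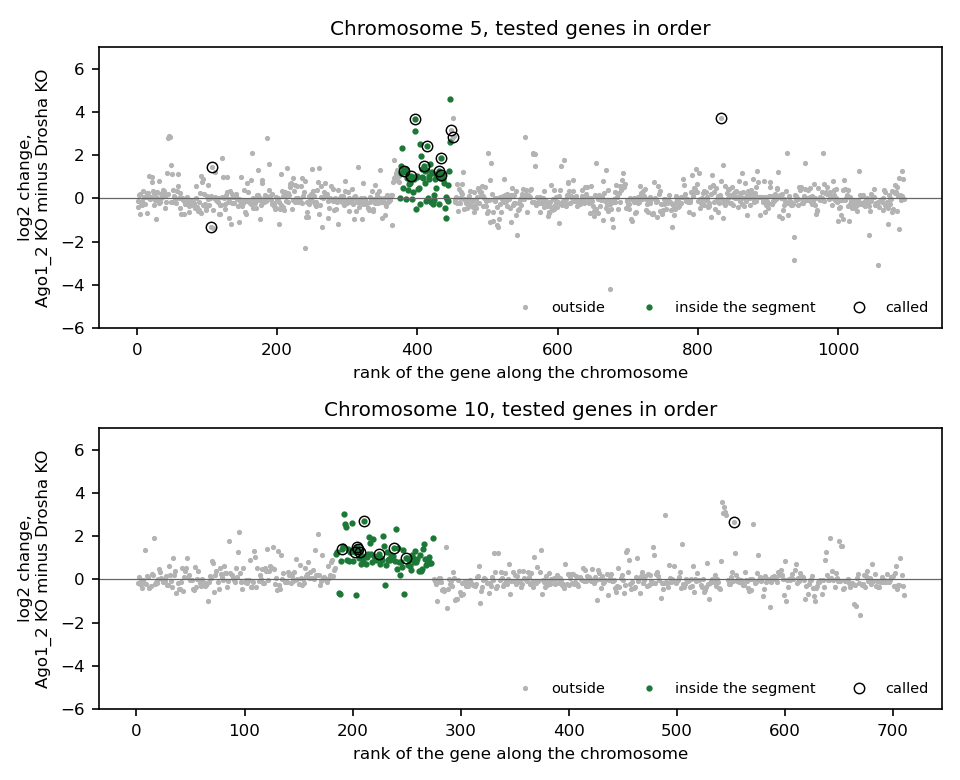
Log2 change of each tested gene of chromosomes 5 and 10, Ago1_2 KO minus Drosha KO, by the gene's rank along the chromosome; green points lie inside the segments and rings mark called genes. Most green points lie above 0, around medians of 0.95 and 0.98, and the grey points have a median of -0.04 on each chromosome. On chromosome 10 the grey points include the window of 100 to 105 Mb, with a median of 0.83.

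Lower genes without a miRNA in or within 10 kb of them numbered 12, and Ago2, Lncpint and Nespas have been given above. The others are named because they were few, after their values were seen. Ctc1, a subunit of the complex that protects and completes telomere ends, was at 209 and 284 CPM against 82.7 and 86.0 CPM (-1.55 ± 0.20, edgeR adjusted p 0.0142), with WT at 246 and 212 CPM. Gldc, the glycine decarboxylase, was at 129 and 120 CPM against 59.8 and 52.9 CPM, with WT at 244 and 178 CPM. Both Ago1_2 KO libraries were below both WT libraries in these genes, and in Gldc both Drosha KO libraries were too.

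H2-Q4, a class I MHC gene, was at 29.2 and 22.1 CPM against 7.64 and 9.73 CPM (-1.56 ± 0.28, edgeR adjusted p 0.0392), with WT at 5.87 and 5.18 CPM, and was the only called gene of 14 tested for class I presentation. H2-Q genes are near-copies of each other, so its reads may be shared. Stmn3, a microtubule regulator of neurons, was at 66.2 and 49.6 CPM against 11.7 and 21.0 CPM, with WT at 8.80 and 11.6 CPM. Both genotypes were above WT in both genes, Drosha KO further than Ago1_2 KO.

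Zfy1, a zinc finger gene of the Y chromosome, was at 35.1 and 10.8 CPM against 2.03 and 1.35 CPM (-3.73 ± 0.58, edgeR adjusted p 0.0316), while its Y neighbours Ddx3y (116 and 83.2 CPM against 96.2 and 97.9 CPM) and Uty (44.5 and 31.4 CPM against 33.7 and 40.5 CPM) overlapped. Its Drosha KO libraries differed by over 2-fold, and its call was lost without either WT or either Ago1_2 KO library. Another Y gene, Uba1y, was also lower without overlap, at 159 and 41.9 CPM against 21.8 and 20.5 CPM. It was not called (-2.24 ± 0.51, edgeR adjusted p 0.0947). Ptgr1, Rerg and Gm18336 were the other called protein-coding genes, and mt-Rnr1, the small ribosomal RNA of mitochondria, was at 199 and 223 CPM against 90.9 and 79.3 CPM.

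Most other pathways on the lists held no called gene. Of the lists of DNA replication (31 tested genes), respiratory chain (40), cholesterol synthesis (25), glycolysis (25), interferon and RNA sensing (35), unfolded protein response (21), aminoacyl-tRNA synthetase (20), DNA methylation (18), Hox (23), collagen (15) and germline genes (36), 0 members were called in either direction, against 0.732% of all genes. Their medians lay between -0.16 and 0.31. Some of these lists still leaned in a single direction. The change was negative in 38 of 40 respiratory chain genes and 26 of 31 DNA replication genes. It was positive in 20 of 21 unfolded protein response genes, against 46.9% of all tested genes. These leanings were not tested. Of 6 tested Rhox genes, a homeobox cluster of the X chromosome, 0 were called and 5 had an unadjusted p under 0.05, all higher. Over all tested genes 6.69% were higher at that threshold. The largest change was in Rhox6, at 1.53 and 1.12 CPM against 12.7 and 3.89 CPM (2.66 ± 0.57, edgeR adjusted p 0.0792). Its Ago1_2 KO libraries were 3-fold apart. Rhox5, the most abundant, was at 12 and 93 CPM against 49.6 and 48 CPM, and the 14 listed Rhox genes summed to 19.7 and 99.1 CPM in Drosha KO and 99.7 and 64.6 CPM in Ago1_2 KO, which overlap.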

How the data were processed

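The series holds 8 polyadenylated RNA libraries of E14 stem cells from the mouse, of which 4 were compared. The authors deposited raw counts per gene. Per the labels the libraries were made with a TruSeq kit and a reverse-stranded protocol, and per the submitters' processing notes reads were aligned with STAR 2.4.2a to mm10 (GRCm38). The sources used here do not give the counting tool, its use of strand or its handling of reads on overlapping genes. All deposited count columns were mapped (0 unused).

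Symbols and positions came from GENCODE M21 (GRCm38), matched for 47224 of 47643 genes. Genes were filtered with filterByExpr by genotype, scaled with TMM factors and fitted with 1 mean per genotype over all 8 libraries (4 residual degrees of freedom) in edgeR 4.0.16 (R 4.3.3, limma 3.58.1). The contrast was tested with the robust quasi-likelihood F test, adjusted by Benjamini-Hochberg over 16388 genes and called under 0.05. Standard errors come from that test. Zero groups were given a floor of 3 counts, and 1 to 3 counts an exact 95% binomial interval. Both cover counting error only. On simulated data over 16035 genes for this contrast, the test recovered 17% of the 2-fold changes and 85% of the 4-fold changes and made 12 false calls.

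The members, gene lists and tests were chosen with earlier results of these data known. Named genes were the 4 targeted genes, the 12 largest changes in each direction (mean of 5 CPM or more, libraries not overlapping, no predicted gene), up to 4 called or 3 other members of each list by p, and the genes of 4 miRNA clusters. Other genes were named after their values were seen, as were the mirtron and retinoic acid lists and the chromosome segments. Alternatives were other scalings, filters and sample sets, a replicate block, DESeq2 1.42.0 and each library left out. Sequences came from RefSeq (GRCm38.p6). Figures were drawn with matplotlib 3.10.9 (numpy 2.4.6, Python 3.11.15).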

Additional observations from a re-analysis of the deposited data

How the results depend on the processing

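Against 120 genes called (67 higher, 53 lower), 648 (453 and 195) were called without a filter on low counts, 362 (260 and 102) with DESeq2 and 15 (4 and 11) with the 4 libraries alone. With the 6 KO libraries 113 were higher. With each library left out the counts ranged from 6 to 176 in all, from 2 to 114 higher and from 4 to 66 lower, the lowest of each without Ago1_2 KO library 2, the highest in all and in the higher direction without WT library 1 and the highest in the lower direction without Drosha KO library 1. Fits that leave 1 library in a genotype assume that it varies like the others. The cause of these shifts was not tested. Other scalings and a filter of 1 CPM gave 118 to 124 calls and shifted the median of all genes by less than 0.1 on the log2 scale. No called value among the genes named by rule changed sign under any alternative. The replicate number as a block (replicate block) gave 158 calls, 99 higher and 59 lower, 114 of them shared with the fit without it. Same-numbered libraries of Drosha KO and Ago1_2 KO had deviations that correlated by 0.247, but the labels tie the number to no batch, so the libraries share only a number. Depth limits the miRNA genes, of which 13 of the 216 tested had no count in either Ago1_2 KO library.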

Other observations

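The long noncoding RNAs of the imprinted Dlk1-Meg3 domain on chromosome 12, which also carries a large miRNA cluster, split the Drosha KO libraries. Meg3 was at 0.851 CPM in Drosha KO library 1 and 352 CPM in library 2, Rian at 1.30 and 436 CPM, and Mirg at 0.340 and 140 CPM. In the other 6 libraries Meg3 lay between 287 and 455 CPM. None of the 3 was called between the genotypes. On the Y chromosome, Uba1y was at 159 and 41.9 CPM in the Drosha KO libraries, 21.8 and 20.5 CPM in Ago1_2 KO and 8.47 and 12 CPM in WT, without being called (edgeR adjusted p 0.0947).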
